A study of Mus musculus with 6 samples.

Results

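miR-574 is a microRNA whose hairpin gives 2 mature strands, mmu-miR-574-5p from its 5p arm and mmu-miR-574-3p from its 3p arm. Both were measured in mouse liver on the same microRNA arrays, and they are 2 of the 1247 mouse miRNAs on the array. The hairpin was chosen by the measured change of miR-574-5p between CCl4-treated and corn oil-treated livers on these arrays, so the change of either arm in that comparison is given as a description and no test is attached to it. All mice were male C57BL/6 and 7 weeks old at the first injection. The CCl4 group (n = 3) received intraperitoneal carbon tetrachloride, a solvent toxic to hepatocytes used to induce liver fibrosis, at 0.6 mL/kg in corn oil, with 2 weekly injections over 10 weeks. The control group (n = 3) received the same volume of corn oil without CCl4 on the same schedule. Total RNA of each liver was labeled with Cy3 and hybridized to its own array.

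A miRNA hairpin is cut from a longer transcript by Drosha and then by Dicer, which leaves a short duplex of the 5p and 3p strands. One strand is loaded into an Argonaute protein and guides it to target mRNAs, mainly through its seed (bases 2 to 8), while the other is usually degraded. Both arms therefore come from one transcript, but their levels in a cell can differ and can change separately. In whole liver RNA, the number of cells of a type that make a miRNA and the amount per cell cannot be told apart.

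The mature strands are shown to make visible how unlike their base compositions are, with the seed in capitals (RefSeq, GRCm38.p6).
miR-574-5p: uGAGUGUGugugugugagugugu
miR-574-3p: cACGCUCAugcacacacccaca
miR-574-5p holds 21 G or U among its 23 bases (91.3%), the highest share among the 1017 array miRNAs that were matched to a RefSeq mature sequence. miR-574-3p holds 18 A or C among its 22 bases (81.8%). No other matched miRNA carries the seed of either arm. The 12-base motif UGUGUGUGUGUG, searched on the miRNA strand alone, is present in 1 of the 1017 matched miRNAs (0.0983%), and that is miR-574-5p. The 230 array miRNAs without a match, miR-466i-5p among them, were not searched for this motif or for shared runs. The PCR primer that the study lists for miR-466i is an unbroken repeat of T and G. The motif is therefore not shown to be particular to miR-574-5p on this array.

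The hairpin, Mir574, lies at chr5:64970318-64970395 on the plus strand of GRCm38.p6. It lies inside the span of Fam114a1 on the same strand and inside the span of Tlr6, a receptor for bacterial lipoproteins, on the opposite strand. The 78-base hairpin is shown with both arms in capitals to place the strands against each other.
Mir574 hairpin: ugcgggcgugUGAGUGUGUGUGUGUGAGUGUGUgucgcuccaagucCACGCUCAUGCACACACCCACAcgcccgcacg
miR-574-5p takes bases 11 to 33 and miR-574-3p bases 47 to 68, with 13 bases between them. The minimum free energy fold of this sequence, computed with RNAfold, had 32 base pairs and -55.6 kcal/mol. Of these, 20 pairs joined the arms, 10 of them G-C, 7 A-U and 3 G-U.

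The signal behind the values was checked first. Between 186 and 193 miRNAs were detected in a control liver and between 227 and 334 in a CCl4-treated liver. The third CCl4 array stood apart. Its summed signal was 316413 against 167865 to 177351 on the other 5 arrays, and its total signal of miR-122-5p, the main hepatocyte miRNA, was 2158 against 13110 to 18345. All 5 listed hepatocyte miRNAs were detected on all 6 arrays. The CCl4 arrays lay in one row of the slide and the corn oil arrays in the other, so slide position and treatment cannot be told apart. With 3 livers in each group, the number of arrays limits the precision.

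miR-574-5p was low but measurable in the control livers and bright in the CCl4-treated livers. Its total signal, the software's background-subtracted intensity summed over the probes of a miRNA and not normalized between arrays, was 14.1, 12.7 and 16.5 in the 3 control livers and 322, 187 and 696 in the CCl4-treated livers. The groups did not overlap, and the lowest CCl4 value lay far above the highest corn oil value. The group means were 14.4 ± 1.95 (SD, n = 3) in corn oil and 402 ± 263 (SD, n = 3) in CCl4. The software's own error of the total ranged from 1.92 to 2.13 on the corn oil arrays and reached 51.6 on a CCl4 array, so the spread among the CCl4 livers was larger than the error within an array. The last of the CCl4 arrays was the highest, and on it the total stood at 0.790 of the mean spot signal, against 0.552 to 0.565 on the other arrays. This was not particular to miR-574-5p. Over 203 probes the proportion on that array was a median of 1.36 times that on corn oil array 1. Totals there, and so the summed signal, are thus raised relative to spot means. The mean spot signals of miR-574-5p were 570, 340 and 881 on the CCl4 arrays, and on this measure too the third array was highest and the second lowest.

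The 40 spots of miR-574-5p are split between 2 probes, each printed 20 times. The dimmer probe, A_54_P3153, gave totals of 4.74, 4.06 and 5.64 in control livers and 112, 64.7 and 241 in CCl4-treated livers. The brighter probe, A_54_P3154, gave 9.33, 8.63 and 10.9 in control livers and 210, 123 and 455 in CCl4-treated livers. Both probes were higher on every CCl4 array than on any corn oil array, and their signals stayed in nearly one proportion, the second being 1.93 to 2.13 times the first on corn oil arrays and 1.87 to 1.90 times on CCl4 arrays. Before normalization the mean log2 difference between CCl4 and corn oil was 4.57 for the brighter probe. On the corn oil arrays the dimmer probe was close to the limit of measurement, and no such difference is given for it. Of the 40 spots, 22, 19 and 27 were well above background there, against 40 of 40 on every CCl4 array. Of the dimmer probe only 2, 0 and 7 of its 20 spots were well above background in the control livers.

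**Figure D1:**
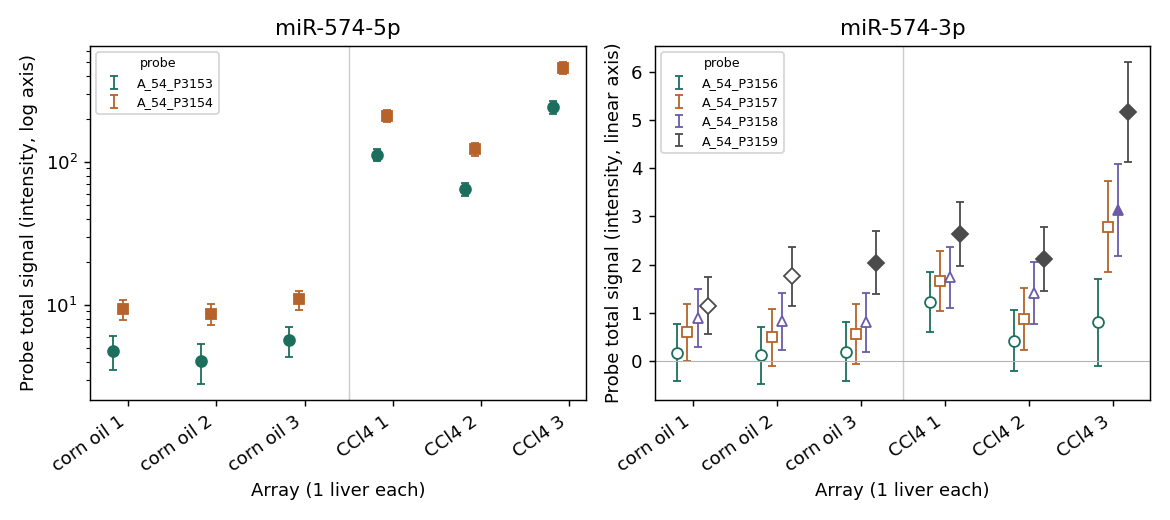
Total signal of each probe of miR-574-5p (left, log axis) and miR-574-3p (right, linear axis) on the 6 arrays, with the software's error as bars. Filled points exceed 3 of their own errors and count in the miRNA's total, and open points do not. Both 5p probes are filled on all arrays and lie far higher on the CCl4 arrays, while only 5 of the 24 points of the 3p probes are filled.

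To compare arrays, log2 totals were quantile normalized over the 166 miRNAs that had the detection flag on each of the 6 arrays. The normalized values of miR-574-5p were 4.42, 4.39 and 4.49 on corn oil arrays and 8.07, 7.66 and 7.79 on CCl4 arrays. With normalization the third CCl4 array was no longer the highest. The difference was 3.41 on the log2 scale (SE 0.15), a 10.6-fold higher normalized array signal in CCl4-treated livers. The study also measured this strand by quantitative PCR and does not list it among the miRNAs whose PCR result matched its arrays. The median change of all 166 was -0.14 and their median absolute change 0.52. A miRNA was called by limma when its fold change exceeded 2 and its p, adjusted by the Benjamini-Hochberg method, was under 0.05. This held for 20 of the 166 (12.0%), and 12 (7.23%) were called higher in CCl4. The normalized values of 24 miRNAs (14.5%) did not overlap and were at the same time higher in CCl4. The count of calls depended on the arrays, at 5 to 28 with 1 array left out and 6 with a replicate block. miR-574-5p belonged to all 3 of these sets, as its selection had fixed, and nothing is read from that. The size of its change depended on the setting and was lowest at 2.09 after normexp background correction.

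miR-574-3p was at the limit of detection in both groups. Its total was set to 0.1, the software's value for an undetected miRNA, on corn oil arrays 1 and 2 and was 2.04 on corn oil array 3. On the CCl4 arrays it was 2.63, 2.12 and 8.30. Detection was thus complete in the CCl4 group and found in 1 of 3 corn oil livers, but few spots stood clear of the background. Only 0, 1 and 0 of its 40 spots on the corn oil arrays and 3, 0 and 8 of 40 on the CCl4 arrays were well above background. For that reason no fold change is given for this arm.

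The total of a miRNA counts a probe only where its signal exceeds 3 times its own error. Applied to the probe values, this rule returned the deposited detection flag for 1247 of 1247 miRNAs on every array. Of its 4 probes, A_54_P3159 was the brightest, with totals of 1.15, 1.76 and 2.04 in control livers and 2.63, 2.12 and 5.16 in CCl4-treated livers. Its signal was 2.86 times its error on the second corn oil array, which left it out, and 3.17 times on the third, which let it in. Corn oil arrays 2 and 3 thus fell on opposite sides of the limit with nearly the same signal. On the last CCl4 array another probe, A_54_P3158, passed at 3.29 times its error, while A_54_P3157 missed at 2.95. The total of 8.30 on that array is therefore a sum over 2 probes. The totals of CCl4 arrays 1 and 2 and of corn oil array 3 rest on 1 probe, and those of corn oil arrays 1 and 2 on none.

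A measure that does not depend on this limit is the mean signal of its spots, those with an outlier flag left out. For miR-574-3p it was 5.10, 5.82 and 6.59 in the control livers, with standard errors over spots of 0.706, 0.905 and 1.03. On the CCl4 arrays it was 13.1, 8.51 and 15.7, with standard errors of 0.946, 1.02 and 1.44. The groups did not overlap, although the second CCl4 array was close to the highest corn oil array. The group means were 5.84 ± 0.746 (SD, n = 3) and 12.4 ± 3.65 (SD, n = 3), a difference of 6.60 intensity units, or 4.95 without the third CCl4 array. All 4 probes were higher on every CCl4 array than on any corn oil array. They read the same strand and are not replicates of each other. Spot means did not overlap and were higher in CCl4 for 294 of the 1247 miRNAs on the array (23.6%). They are not normalized between arrays. For totals without normalization, the median log2 change of all tested miRNAs was 0.99. How much of the difference of miR-574-3p is a shift of the whole array was not tested.

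Averaged over its 4 probes, the spot means of miR-574-3p stood above the array's blank level in both groups. The negative control spots averaged 3.85, 3.94 and 4.47 in the control group and 2.72, 3.29 and 3.87 in the CCl4 group. Single probes differed. A_54_P3156 averaged 1.27, 0.905 and 1.43 on the corn oil arrays, below these controls, and 8.65, 3.05 and 4.21 on the CCl4 arrays. On CCl4 array 2 it was below the negative controls too. A_54_P3157 lay below them on corn oil arrays 2 and 3. A_54_P3158 and A_54_P3159 lay above them on every array. Among the 882 miRNAs that were detected on no array, the 90th percentile of the spot mean was 1.86 to 2.40 on corn oil arrays and 2.26 to 3.53 on CCl4 arrays. miR-574-3p lay above 98.2% to 99.3% of these undetected miRNAs in the control livers and above 99.4% to 100% in the CCl4-treated livers. Within the undetected miRNAs, 102 of 882 (11.6%) had spot means that did not overlap and were higher in CCl4, and 54 had lower ones.

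**Figure D2:**
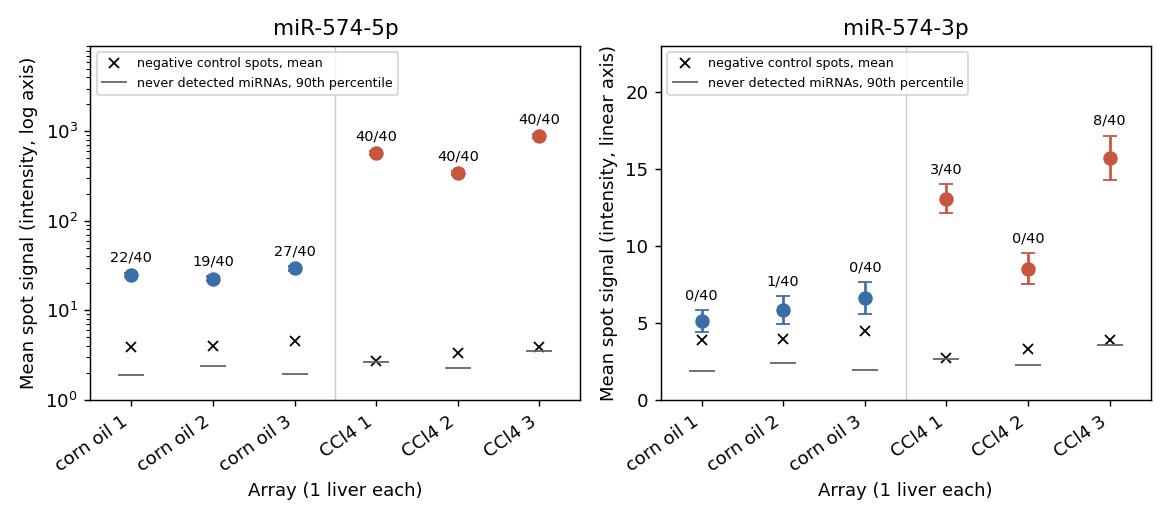
Mean signal of the spots without an outlier flag, with its standard error over spots, for miR-574-5p (left, log axis) and miR-574-3p (right, linear axis), corn oil in blue and CCl4 in red. Crosses mark the mean of the negative control spots, dashes the 90th percentile of miRNAs detected on no array, and the numbers above the points the spots well above background. miR-574-3p lies above both marks on all 6 arrays and is higher on the CCl4 arrays, but at most 8 of its 40 spots clear the background.

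The arms were then set against each other on the same array. Within 1 array the log2 ratio of the 5p total to the 3p total does not depend on how arrays are scaled to each other, although it compares different probes and so sets no level of one arm against the other. It was 3.02 on the third corn oil array, the only control array on which both arms were detected. On the CCl4 arrays it was 6.94, 6.47 and 6.39. The CCl4 mean of 6.60 ± 0.30 (SD, n = 3) lay 3.58 above that single control value. The ratio of the brightest probe of each arm, which exists for all arrays, was 3.02, 2.29 and 2.42 in corn oil and 6.32, 5.85 and 6.46 in CCl4, a difference of 3.64. With spot means it was 2.29, 1.95 and 2.15 in corn oil and 5.45, 5.32 and 5.81 in CCl4, a difference of 3.40. On the last 2 measures every CCl4 array was above every corn oil array. The 3p signals behind all these ratios were close to background, with at most 8 of 40 spots well above it. Over a denominator so near the floor the ratio rises with miR-574-5p, whose rise chose the hairpin, so the ratios describe these arrays and do not show how far miR-574-3p followed.

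Among the 422 hairpins with both arms on the array, 23 shared the detection pattern of miR-574, with 1 arm on all 6 arrays and the other on some of them. In 10 hairpins both arms were detected on all 6 arrays, and only for these could a normalized change be given for each arm. Their arms differed by a median of 0.37 in absolute log2 change, and the differences (5p minus 3p) ran from -2.15 to 1.15. The largest was that of miR-652, with a change of -1.04 for its 5p and 1.12 for its 3p arm. miR-1839 followed with 0.61 and -0.54, and miR-22 with -1.03 and -0.38. The arms of miR-199a, a miRNA of mesenchymal cells, changed nearly alike, by 1.34 and 1.28. The change of miR-574-5p, for which the hairpin was chosen, was larger than that of any of these 20 arms.

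**Figure D3:**
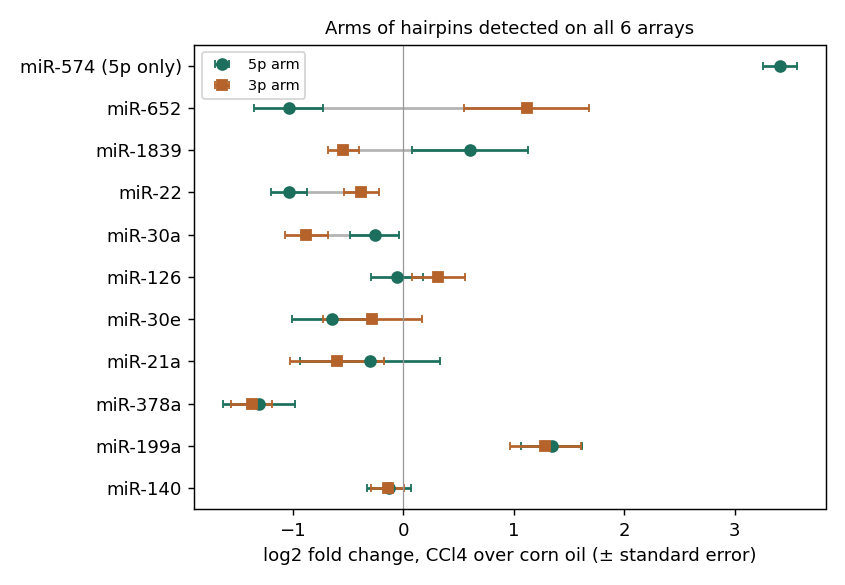
Log2 fold change (CCl4 over corn oil, quantile normalized totals, bars the standard error of the fit) of the 5p and 3p arm of the 10 hairpins detected with both arms on all 6 arrays, with miR-574-5p on top. Grey lines join the arms of a hairpin. miR-652 has the widest gap, and miR-574-5p lies at 3.41, to the right of all 20 arms.

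The sequence of miR-574-5p led to the next comparison, made over the matched miRNAs alone, so miR-466i-5p is outside it. An alternating run of U and G of at least 10 bases occurs in 3 of the 1017 matched miRNAs (0.295%), miR-574-5p with 13 bases, miR-1187 with 11 and miR-3082-5p with 10. Their sequences are shown with the longest stretch shared with miR-574-5p in capitals, 12 bases for miR-3082-5p (Mir3082, chromosome 17) and 11 for miR-1187 (Mir1187, chromosome 5).
miR-3082-5p: gacaGAGUGUGUGUGUcugugu
miR-1187: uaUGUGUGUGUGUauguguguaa
One more miRNA, miR-32-3p, shares a run of 10 bases with miR-574-5p, and it was detected on 0 of the 6 arrays. No matched miRNA shares a run of 10 or more bases with miR-574-3p.

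miR-3082-5p and miR-1187 were brighter on every CCl4 array than on any corn oil array, by totals and by spot means. By spot means the same held for 294 of the 1247 miRNAs on the array (23.6%). The totals here are not normalized, and without normalization the median log2 change of all tested miRNAs was 0.99. The totals of miR-3082-5p were 4.45, 3.72 and 4.83 on corn oil arrays and 192, 111.4 and 419 on CCl4 arrays. No corn oil array had more than 10% of its spots well above background, so the level is only bounded, as at least 8.74-fold higher in CCl4. miR-1187 gave totals of 3.79 and 4.42 on corn oil arrays 1 and 3, was undetected on corn oil array 2, and gave 141, 80.8 and 298 on the CCl4 arrays. Since it was missing on 1 array it was not among the 166 miRNAs tested, and its bound was at least 6.32-fold higher in CCl4. Follow-up required detection on all arrays of at least 1 group, which miR-1187 met only through CCl4. Its detection in that group was thus fixed by the filter, and its bound is a description. The bounds were taken from totals scaled to the 75th percentile of each array, against the lowest signal of a miRNA with over 50% of its spots well above background.

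Likeness of pattern was measured next. Over the 6 arrays, the miRNA with the pattern most like that of miR-574-5p was miR-466i-5p, with a root mean square difference of 0.233 between mean-centred normalized log2 values, where the median over the 165 other miRNAs was 1.86. Its totals were 46.1, 43.8 and 55.1 on corn oil arrays and 836, 489 and 1786 on CCl4 arrays. The study measured miR-466i by quantitative PCR too and does not list it among the miRNAs whose PCR result matched its arrays. Next came miR-3082-5p at 0.589, miR-199b-5p at 0.644, miR-188-5p at 0.801 and miR-99b-5p at 0.863. The distance mostly measures the difference between the groups, so a rise of these 5 in CCl4 was fixed by the way they were picked and is not tested. miR-466i-5p and miR-3082-5p also followed miR-574-5p from liver to liver within the CCl4 group, whereas miR-188-5p did not, with totals of 46.6, 51.6 and 24.6. A sixth miRNA reached nearly the same distance as the fifth. No such list exists for miR-574-3p, which was not among the 166.

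Among the CCl4 livers the distance between miR-574-5p and some of these miRNAs was almost constant. The log2 difference of miR-3082-5p from miR-574-5p was -0.746, -0.750 and -0.731 on the 3 CCl4 arrays, an SD of 0.0104. For miR-466i-5p it was 1.38, 1.38 and 1.36 (SD 0.0121), and for miR-1187 it was -1.19, -1.21 and -1.22 (SD 0.0144). Over all 206 other miRNAs detected on the 3 CCl4 arrays the median of this SD was 0.633, and 5 lay below 0.1. The other 2 were miR-669n (SD 0.0216) and miR-28a-5p (SD 0.0880), named after their values had been seen. miR-28a-5p had a normalized change of 0.17 and was not called. On the corn oil arrays, where the signals were low, the distances were others, at -1.66, -1.77 and -1.78 for miR-3082-5p and 1.71, 1.79 and 1.74 for miR-466i-5p.

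**Figure D4:**
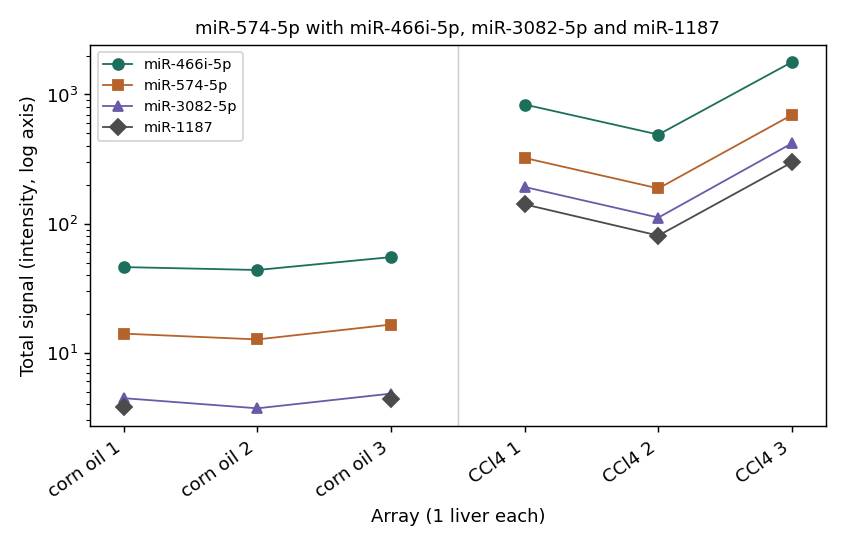
Total signal (intensity, log axis) of miR-574-5p, miR-466i-5p, miR-3082-5p and miR-1187 on the 6 arrays, with lines joining arrays of 1 group only to make parallel courses visible. On the CCl4 arrays the 4 courses run parallel, and miR-1187 has no point on the second corn oil array, where it was undetected.

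miR-669n (chromosome 3) was picked for its low SD among the CCl4 livers. It is the second richest in G and U of the matched miRNAs, with 90% of its 20 bases. It shares a run of 8 bases with miR-574-5p (capitals).
miR-669n: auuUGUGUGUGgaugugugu
It was undetected on the 3 corn oil arrays and gave totals of 32.9, 19.7 and 72.6 on the CCl4 arrays, with 100% of its spots well above background there. The SD was taken only over miRNAs detected on all CCl4 arrays. Detection of miR-669n in that group was thus fixed by the filter, and its values are a description. Binding of labeled miR-574-5p, or of other RNA with U and G repeats, to the probes of the other miRNAs was not tested.

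**Figure D5:**
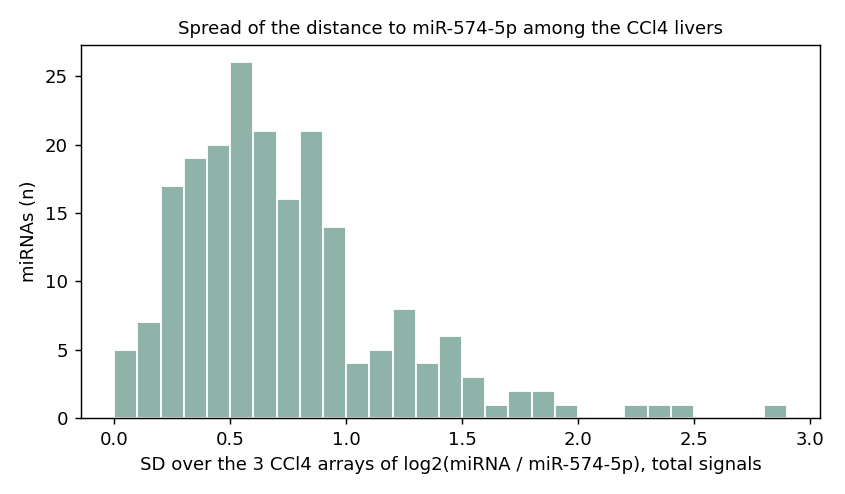
Number of miRNAs (vertical axis) by the SD over the 3 CCl4 arrays of the log2 ratio of their total to that of miR-574-5p (horizontal axis, bins of 0.1), for the 206 other miRNAs detected on those arrays. The 5 in the lowest bin are miR-3082-5p, miR-466i-5p, miR-1187, miR-669n and miR-28a-5p, and the median is 0.633.

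Base composition was then described over the array as a whole. Of the 1017 matched miRNAs, 49 held at least 75% G or U, a limit chosen after values had been seen. Among these 49, 20 (40.8%) had spot means that were higher in CCl4 without overlap and 0 had lower ones. All 1017 gave 231 higher (22.7%) and 49 lower. Spot means are not normalized between arrays, and the third CCl4 array had the most summed signal. Some of the 20 were near the floor. miR-1930-3p was detected on 0 arrays, and miR-672-5p, miR-382-5p and miR-129-5p on 1 array each. On all CCl4 arrays 18 of the 49 (36.7%) were detected, against 161 of the 1017 (15.8%). On all corn oil arrays 14 of the 49 were detected, against 141 of the 1017, so the higher share was present in the controls too. The 49 include miR-574-5p and several let-7 miRNAs, which share their seed and so are not independent of each other.

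Lists of miRNAs known from liver cell types were summed on each array, without normalization. For 6 mesenchymal miRNAs the summed total was 82.0, 67.2 and 109 in control livers and 643, 255 and 1236 in CCl4-treated livers, with 4 of the 6 detected on all arrays. The groups did not overlap, and the third CCl4 array, the highest, was also the array with the most summed signal. For 6 leukocyte miRNAs the sum was 91.0, 77.7 and 90.7 in control livers and 475, 346 and 457 in CCl4-treated livers, with 3 of the 6 detected on all arrays. After normalization the log2 changes of those 3 were unequal, at 0.52, 1.18 and 0.06, and none was called. The 2 endothelial miRNAs summed to 563 to 677 in corn oil and 821 to 3732 in CCl4. The ranges of the 2 erythroid miRNAs on the array (466 to 754 and 315 to 2135) and of 5 epithelial miRNAs (10.4 to 48.8 and 16.9 to 139) overlapped. The sum of the 5 hepatocyte miRNAs was 18973 to 20873 in corn oil and 3047 to 17762 in CCl4. The part of these cell types in the signal of miR-574-5p or miR-574-3p was not tested.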

How the data were processed

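The authors extracted spot and probe signals with Agilent Feature Extraction 11.0.1.1 (per the labels) and deposited them as linear intensities after background subtraction, with no normalization between arrays. A second deposited table holds quantile normalized intensities of 111 miRNAs. It includes miR-574-5p but not miR-574-3p, and was used as an alternative. In it the corn oil columns 1, 2 and 3 follow the rank order of scanner arrays 2, 3 and 1, which leaves group means as they are.

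Control spots were left out. Totals of the 166 of 1247 miRNAs with the detection flag on all 6 arrays were log2 transformed and quantile normalized, and treatment was fitted as the only term in limma 3.58.1 (R 4.3.3), as in the study's methods. Calls required a fold change over 2 and a p under 0.05 after Benjamini-Hochberg adjustment. The fit was tested on simulated data. Spot means leave out spots with an outlier flag. miR-574-3p was below the detection limit on 2 arrays and not well above background in either group, so it is given as values only, without the planned fit. The scanner output names build mm9, so probe coordinates were not used. Sequences and their GRCm38.p6 coordinates are RefSeq's. Folding used ViennaRNA 2.7.2. Other tools were pandas 2.3.3, numpy 2.4.6 and matplotlib 3.10.9 in Python 3.11.15.

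The members, lists and tests were chosen with earlier results of these data known. Named were both arms, miRNAs sharing at least 10 bases or the seed with an arm, the 5 most like in pattern, the 3 hairpins with the widest arm difference, and marker lists as counts with miR-122-5p. Alternatives covered normalization, filter, signal per miRNA, normexp on median spot signals, the deposited values, a replicate block and leaving out single arrays. For miR-574-3p, choices made once the data had been seen were the median spot signal minus local background and the subtraction of the negative control mean, and the share of G and U. The number of arrays limits the precision of all values.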

Additional observations from a re-analysis of the deposited data

Results flagged for a closer look

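miR-1187 was left out of the tested set because it was undetected on 1 corn oil array, yet its lowest total on a CCl4 array was 80.8 and its highest on a corn oil array 4.42. miR-574-3p was likewise outside the tested set, and its lowest spot mean on a CCl4 array was 8.51 against a highest of 6.59 on a corn oil array. Both stand here because values above those of the control livers appeared in data that the fit did not use. For miR-574-3p these spot means are not normalized and lie near the floor. On the second CCl4 array 0 of its 40 spots were well above background. Spot means were likewise higher without overlap for 294 of the 1247 miRNAs (23.6%). miR-1187 had been followed up only because all CCl4 arrays detected it, so its values are a description.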

How the results depend on the processing

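The direction of the change of miR-574-5p was fixed by its selection. Its size was 4.60 without normalization, where the median change of all miRNAs moved from -0.14 to 0.99, 2.09 after normexp, which adds an offset of 50 to each signal, and 3.63 in the deposited values. With 1 array left out it ranged from 3.31 to 3.51. The number of called miRNAs moved more. It was 32 when detection on all arrays of at least 1 group was enough, 6 without the detection filter, 4 after normexp and 12 in the deposited values. Leaving out 1 array gave 5 to 28 calls, 5 without the first CCl4 array and 28 without the third, and 7, 7 and 6 without corn oil 1, 2 and 3. Without normalization all 18 called miRNAs were higher, against 12 of 20 with it. The spot mean difference of miR-574-3p ranged from 4.95 to 8.56 and the arm ratio change from 3.40 to 3.68. The groups did not overlap on either measure, so leaving out an array could not reverse the sign, and nothing is read from that. Causes of these shifts beyond the settings themselves were not tested.

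Replicate numbers only name the livers. Deviations of livers with the same number correlated at -0.18, 0.11 and 0.03, and 1 of 3 corn oil arrays correlated best with its own number. With a replicate block 6 miRNAs were called, and the change of miR-574-5p was 3.41.

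For miR-574-3p and the arm ratio, alternatives of normalization, filter, normexp, deposited values and block were not run, since the arm has no fold change and scaling leaves a ratio within an array as it is. The arm ratio without corn oil 3 has no control array left. Signal over background limits miR-574-3p in both groups and miR-574-5p in the controls.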
